A study of Rattus norvegicus with 5 samples.

Results

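Astrocytes take up the glutamate that neurons release, convert it to glutamine, move water and bicarbonate across their membranes and are coupled to each other by gap junctions. The 10 genes described here serve these or related tasks or mark astrocytes: Slc1a2, Slc1a3, Glul, Slc7a10, Slc7a11, Gja1, Gjb6, Aqp4, Slc4a4 and Aldh1l1. They were taken as the rows of the deposited count table with these symbols, and all 10 were found among 17321 rows and had enough counts to be tested among 13478 genes. They were measured by RNA sequencing of dorsal horn from lumbar spinal cord (L4-L6) from Sprague Dawley rats on day 9 after their surgery. There were 3 libraries after CCI, the usual abbreviation of chronic constriction injury of a nerve, a model of neuropathic pain, and 2 libraries after SHAM surgery, the operation without the injury. The labels give no age or genotype and do not tie libraries to animals. The p-values therefore measure the spread between these libraries, which may be technical.

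Slc1a2 and Slc1a3 encode the main glutamate transporters of astrocytes, and Glul encodes glutamine synthetase, which turns the glutamate they bring in into glutamine for return to neurons. Slc7a11 encodes the light chain of the cystine and glutamate exchanger, which brings in cystine for glutathione synthesis and releases glutamate, and Slc7a10 encodes a light chain that carries small neutral amino acids such as D-serine and glycine, both co-agonists of NMDA receptors. Gja1 and Gjb6 encode the main astrocyte connexins, Aqp4 the water channel of endfeet on blood vessels, Slc4a4 a sodium bicarbonate cotransporter, and Aldh1l1 an enzyme of folate metabolism that is widely used as a marker of astrocytes.

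A pair of amino acid exchangers moved in opposite directions after CCI, and the other 8 genes were not called. Slc7a11 rose and Slc7a10 fell by the rule used here, a Benjamini-Hochberg adjusted p no higher than 0.05 in edgeR's quasi-likelihood test together with a change of 1.5-fold or more. Gjb6 was lower with an adjusted p below 0.05 and a fold below 1.5. The genes of glutamate uptake itself, Slc1a2, Slc1a3 and Glul, did not pass. For 4 genes (Slc1a2, Slc1a3, Aqp4 and Slc4a4) the 95% interval of the difference lay inside a 1.5-fold change. Of the 10 genes 1 was called higher and 1 lower, beside 2.59% of all tested genes called higher and 0.260% called lower (2.85% in either direction). By the same test, an unadjusted p below 0.05 was found for 5 of the 10, beside 16.0% of all tested genes. The median log2 fold change of the 10 was -0.07, beside 0.01 over all tested genes. It stands between 4 positive and 6 negative values and does not measure how far single genes changed.

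Slc7a10 and Slc7a11, members of the same transporter family, are the genes on which the comparison turns, and their promoter windows are shown to set them side by side. Each window runs from 250 bases before to the first 50 bases of the transcript, as RefSeq gives it for the build GRCr8, 5′ to 3′ on the gene's strand, with CG dinucleotides in capitals. The Slc7a10 window lies at chr1:96965872-96966171 on the plus strand and the Slc7a11 window at chr2:136668215-136668514 on the minus strand.
Slc7a10: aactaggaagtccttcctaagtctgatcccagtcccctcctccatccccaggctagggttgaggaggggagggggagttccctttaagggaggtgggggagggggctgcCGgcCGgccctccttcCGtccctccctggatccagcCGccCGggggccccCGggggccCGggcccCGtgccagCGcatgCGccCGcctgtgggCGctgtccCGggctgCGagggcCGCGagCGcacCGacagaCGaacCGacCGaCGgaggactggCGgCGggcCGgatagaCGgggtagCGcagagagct
Slc7a11: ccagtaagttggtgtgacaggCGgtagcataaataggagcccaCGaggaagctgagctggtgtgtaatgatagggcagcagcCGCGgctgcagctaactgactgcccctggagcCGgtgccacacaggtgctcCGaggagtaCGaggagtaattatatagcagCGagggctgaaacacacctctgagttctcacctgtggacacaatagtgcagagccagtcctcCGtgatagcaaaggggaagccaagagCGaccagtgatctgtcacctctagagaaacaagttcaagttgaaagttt
The Slc7a10 window was 72.3% G and C with 27 CG dinucleotides, a number that 13.9% of all 33469 windows of this length reached. The Slc7a11 window was 53.3% G and C with 10 CG dinucleotides, which 41.5% of all windows reached, and the median window held 7. Neither window held TGACNNNGC, the core of the antioxidant response element, or TGATGNAA, a core of the amino acid response element, on either strand; 12.1% and 3.98% of all windows did. These are the letters within this window alone.

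The libraries were of similar depth, with totals of 20053353 to 23673198 estimated counts, and the 10 genes held 0.485% to 0.577% of them. The largest single row took 15.2% of all counts in CCI 3, and 2.69% to 4.07% in each other library, so levels are given as CPM, counts scaled to library size by the trimmed mean of M-values (TMM). All 35 astrocyte markers, which include the 10 genes themselves, had counts in every library. Genes used here as markers of motor neurons, cells that lie outside the dorsal horn, also had counts. These 8 markers summed to 131 to 380 CPM after CCI and to 578 and 838 CPM after SHAM. Whether their counts came from motor neurons was not tested. Schwann cell markers summed to 43.3, 221 and 520 CPM after CCI 1, CCI 2 and CCI 3 and to 32.4 and 47.1 CPM after SHAM, and fibroblast and meningeal markers to 218, 962 and 825 CPM after CCI and to 228 and 270 CPM after SHAM. In such tissue, fewer cells of a type and less RNA per cell cannot be told apart.

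**Figure D1:**
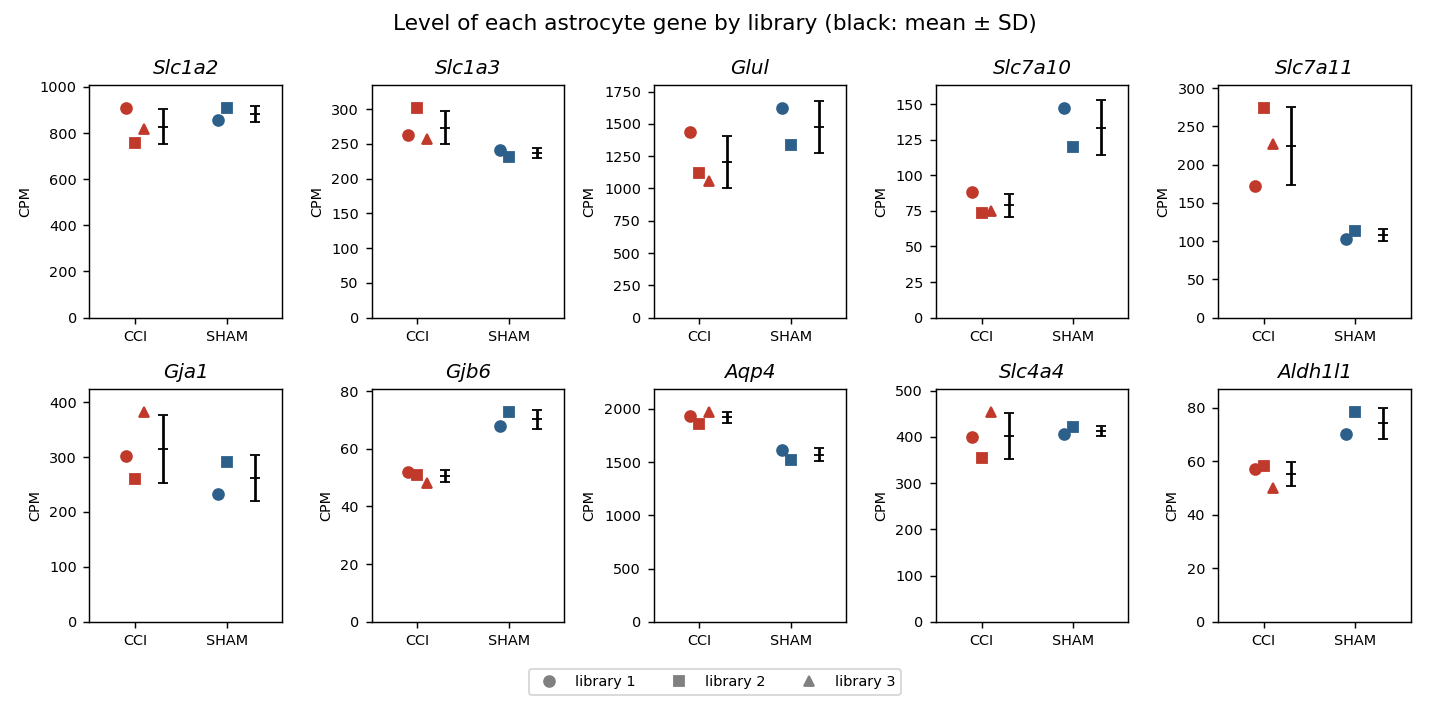
Level of each of the 10 astrocyte genes in CPM (TMM-scaled counts relative to library size, axes from 0) in 3 CCI libraries (red, left) and 2 SHAM libraries (blue, right); marker shapes number the libraries within a group and black bars give the mean ± SD. Slc7a11 and Aqp4 lie higher in every CCI library than in either SHAM library, as does Slc1a3 by a narrow margin, while Slc7a10, Gjb6 and Aldh1l1 lie lower.

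Slc1a2 stood at 908, 758 and 817 CPM in the CCI libraries and at 856 and 908 CPM in the SHAM libraries, so the groups overlapped. Its log2 fold change was -0.09 (SE 0.12, adjusted p = 0.731), with a 95% interval of -0.36 to 0.17. That interval lies inside a 1.5-fold change, which is 0.58 on the log2 scale. Slc1a3 had 263, 301 and 257 CPM after CCI and 241 and 231 CPM after SHAM. Every CCI library was above both SHAM libraries, by little, and the difference did not pass (log2 fold change 0.21, SE 0.11, 95% interval -0.03 to 0.46, adjusted p = 0.382). Its interval also lies inside a 1.5-fold change.

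Glul had 1436, 1123 and 1058 CPM after CCI and 1621 and 1336 CPM after SHAM. CCI 1 was above SHAM 2, and the difference did not pass (log2 fold change -0.29, SE 0.16, adjusted p = 0.402). Its interval, -0.65 to 0.06, leaves room for a 1.5-fold decrease. The CPM ratio of Slc1a2 to Slc1a3 within a library was 3.46, 2.52 and 3.18 in CCI and 3.55 and 3.93 in SHAM. The CCI libraries were lower, with a log2 difference of -0.30 (two-sided exact permutation test, p = 0.2, where 0.1 is the smallest that 10 splits allow), so the balance of the transporter genes was not shown to differ.

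Slc7a11 rose after CCI. It had 172, 274 and 227 CPM after CCI 1, CCI 2 and CCI 3 and 102 and 113 CPM after SHAM 1 and SHAM 2, resting on 2252 or more counts in each library. The groups did not overlap, and the CCI libraries varied more among themselves (mean 224 ± 50.7 CPM, SD, n = 3) than the SHAM libraries (108 ± 7.64 CPM, SD, n = 2). The log2 fold change was 1.06 (SE 0.19, 2.08-fold, adjusted p = 0.0292), with a 95% interval of 0.62 to 1.50. The call was lost without CCI 3 (adjusted p = 0.110), without SHAM 1 (0.360) and without SHAM 2 (0.235), with log2 fold changes of 0.99 to 1.12 in these fits.

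Markers of other cell types also varied between the libraries. The CCI libraries with the highest Slc7a11, CCI 2 and CCI 3, were also those with high Schwann cell and fibroblast markers. Of these, CCI 2 had more Slc7a11 and the higher fibroblast and meningeal sum, and CCI 3 had the higher Schwann cell sum. Schwann cell markers summed to 43.3 CPM in CCI 1, between the SHAM sums of 32.4 and 47.1 CPM. In CCI 1 the fibroblast and meningeal markers summed to 218 CPM, against 228 and 270 CPM after SHAM, and Slc7a11 had 172 CPM, against 102 and 113 CPM after SHAM. With CCI 2 and CCI 3 left out its log2 fold change was 0.67 (adjusted p = 0.0157), a fit with a single CCI library in which the spread comes from the SHAM libraries alone. With the mean level of the Schwann cell markers as a covariate it was 0.77 and did not pass (adjusted p = 0.126). The covariate was high in CCI 2 and CCI 3 and lowers the residual degrees of freedom. Over all genes 180 were called with it and 384 without it. This fit therefore cannot tell the part of Schwann cells in the Slc7a11 difference. The 10 microglial markers, of which 8 were called higher, summed to 1193, 1283 and 1135 CPM after CCI and to 359 and 406 CPM after SHAM, and the part of microglia and of fibroblasts in the Slc7a11 difference was not tested.

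Slc7a10 fell after CCI. It had 88.1, 73.5 and 75.0 CPM after CCI 1, CCI 2 and CCI 3 and 147 and 120 CPM after SHAM 1 and SHAM 2. The groups did not overlap, and the highest CCI library was below the lowest SHAM library. The CCI mean was 78.9 ± 8.0 CPM (SD, n = 3) and the SHAM mean was 134 ± 19.2 CPM (SD, n = 2). The log2 fold change was -0.76 (SE 0.13, 1.69-fold lower in CCI, adjusted p = 0.0140) with a 95% interval of -1.05 to -0.47. The call was lost without SHAM 1 (log2 fold change -0.61), without SHAM 2 (-0.91) and with CCI 2 and CCI 3 left out (-0.61). Each of these fits leaves a single library in a group. The call was also lost with the Schwann cell covariate (-0.59, adjusted p = 0.149 in edgeR's quasi-likelihood test). That fit called 0 of all tested genes lower, against 35 without the covariate, so this loss was not particular to Slc7a10.

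Summed markers of neurons and of oligodendrocyte lineage cells were also lower after CCI. The 8 motor neuron markers, 5 of them called lower, summed to 380, 131 and 244 CPM after CCI 1, CCI 2 and CCI 3 and to 838 and 578 CPM after SHAM 1 and SHAM 2, and over the 5 libraries they had the same order as Slc7a10. The 8 general neuronal markers, 1 of them called lower, summed to 6394, 5486 and 5213 CPM after CCI and to 9937 and 8419 CPM after SHAM. Averaged as the log2 of CPM plus 1, they differed less, with 8.455, 8.193 and 8.364 after CCI and 8.619 and 8.638 after SHAM. The 6 markers of oligodendrocyte precursors also had the order of Slc7a10, with 612, 533 and 602 CPM after CCI and 659 and 637 CPM after SHAM. The 9 oligodendrocyte markers summed to 18393, 16485 and 15922 CPM after CCI and to 22148 and 20571 CPM after SHAM. The sums of general neuronal and of oligodendrocyte markers did not have the order of Slc7a10. They were lowest in CCI 3, while Slc7a10 was lowest in CCI 2. The part of these cell types in the Slc7a10 difference was not tested. Both Slc7a10 and Slc7a11 also had fractional estimated counts, which arise where reads fit more than 1 row, and their levels are uncertain to that extent.

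The CPM ratio of Slc7a10 to Slc7a11 within a library, which does not depend on how libraries are scaled, was 0.511, 0.269 and 0.331 in CCI and 1.44 and 1.06 in SHAM. Every CCI ratio was below both SHAM ratios. Its log2 difference, CCI minus SHAM, was -1.79 (two-sided exact permutation test, p = 0.1, the smallest that 10 splits allow; adjusted p = 0.13 over 13 ratios). Slc3a2, named for its role and not by the rule for naming genes, encodes the heavy chain that pairs with both light chains. It had 151, 147 and 114 CPM after CCI and 133 and 129 CPM after SHAM, so the groups overlapped (log2 fold change 0.07, SE 0.13, adjusted p = 0.827 in edgeR's quasi-likelihood test).

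**Figure D2:**
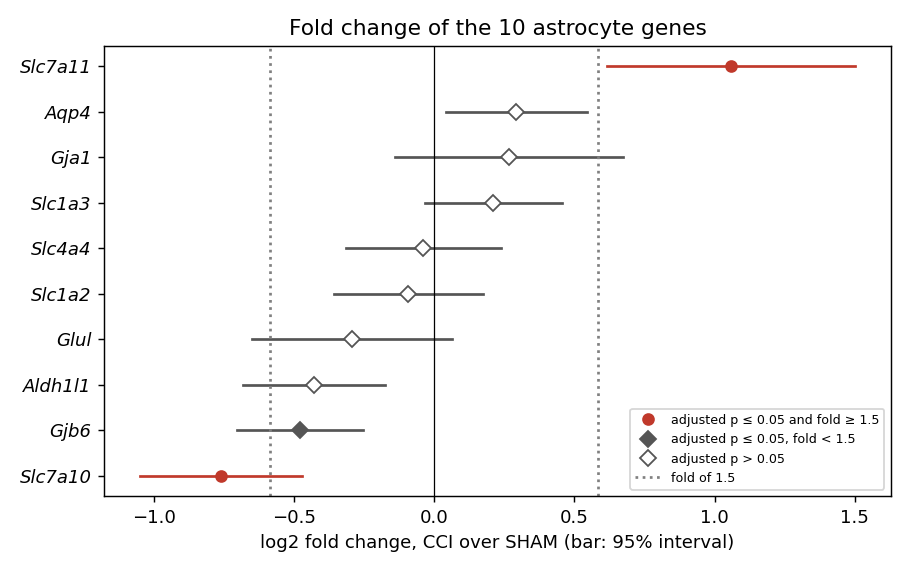
Fold change of each astrocyte gene on the log2 scale, CCI over SHAM, with its 95% interval from edgeR's quasi-likelihood fit; dotted lines mark a fold of 1.5 in each direction, and filled or red symbols mark an adjusted p of at most 0.05 without or with that fold. Slc7a11 at 1.06 and Slc7a10 at -0.76 lie outside the dotted lines, and the other 8 genes lie between -0.48 and 0.29.

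The connexin genes had fold changes of opposite sign. Gja1 had 302, 261 and 381 CPM after CCI and 232 and 292 CPM after SHAM. The groups overlapped, and the difference did not pass (log2 fold change 0.27, SE 0.18, 95% interval -0.14 to 0.67, adjusted p = 0.494). Gjb6 had 52.1, 51.1 and 48.2 CPM after CCI and 67.9 and 72.6 CPM after SHAM. These groups were tight and did not overlap.

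The log2 fold change of Gjb6 was -0.48 (SE 0.10, 1.39-fold lower in CCI, 95% interval -0.70 to -0.25, adjusted p = 0.0376), so it passed the adjusted p and not the fold. At any fold, 3 of the 10 genes had an adjusted p of at most 0.05, beside 3.0% of all tested genes. The adjusted p of Gjb6 rose above 0.05 without CCI 2 (0.0613), CCI 3 (0.0625), SHAM 1 (0.267) or SHAM 2 (0.302), with CCI 2 and CCI 3 left out (0.136), with limma-voom (0.0532), with scaling to total counts only (0.109) and with the Schwann cell covariate (0.322), while its log2 fold change stayed between -0.53 and -0.44 in all 17 alternatives run. Gjb6 over Gja1 was 0.172, 0.196 and 0.126 in CCI and 0.293 and 0.249 in SHAM. The groups did not overlap, and the log2 ratio differed by -0.74 (two-sided exact permutation test, p = 0.1, the smallest possible).

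Aqp4 had 1932, 1860 and 1968 CPM after CCI and 1611 and 1524 CPM after SHAM. All CCI libraries were higher and the groups did not overlap, but the difference was small and did not pass (log2 fold change 0.29, SE 0.11, 1.23-fold, adjusted p = 0.236; 0.0239 with DESeq2). Its 95% interval was 0.04 to 0.54, inside a 1.5-fold change. Slc4a4 had 399, 355 and 453 CPM after CCI and 406 and 421 CPM after SHAM, with CCI libraries on either side of the SHAM libraries. Its log2 fold change was -0.04 (SE 0.12, 95% interval -0.32 to 0.24, adjusted p = 0.899).

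Aldh1l1 had 57.0, 58.2 and 49.9 CPM after CCI and 70.1 and 78.2 CPM after SHAM. All CCI libraries were lower and the groups did not overlap, and the difference did not pass (log2 fold change -0.43, SE 0.11, 95% interval -0.68 to -0.18, adjusted p = 0.0875). In all, 3 of the 10 genes had every CCI library above every SHAM library and 3 had every CCI library below. Of all tested genes 36.7% did not overlap (18.6% above and 18.1% below), so a lack of overlap is common in these data.

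Compared per transcript length in the authors' deposited TPM table, the order of the genes was much alike in both groups. Glul was highest with 599 ± 95.7 TPM in CCI (SD, n = 3) and 722 ± 101 TPM in SHAM (SD, n = 2), followed by Slc1a2 with 570 ± 46.9 TPM in CCI and 596 ± 21.5 TPM in SHAM. The libraries of these neighbours overlapped in CCI and not in SHAM. Aqp4 came next at 471 ± 14.7 TPM in CCI and 377 ± 15.1 TPM in SHAM.

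Slc4a4 (141 ± 17.7 TPM in CCI and 142 ± 3.34 TPM in SHAM) and Gja1 (126 ± 25.1 TPM in CCI and 103 ± 16.3 TPM in SHAM) followed, overlapping in CCI and not in SHAM. Slc1a3 was at 87.2 ± 7.88 TPM in CCI and 73.8 ± 2.38 TPM in SHAM, and Slc7a10 at 54.0 ± 5.02 TPM in CCI and 90.0 ± 13.5 TPM in SHAM. Slc7a10 was thus below Slc1a3 in CCI and above it in SHAM, where its libraries overlapped with those of Gja1.

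Gjb6 was at 38.8 ± 1.44 TPM in CCI and 53.1 ± 2.12 TPM in SHAM. Slc7a11 was at 30.4 ± 6.95 TPM in CCI and 14.3 ± 1.01 TPM in SHAM, and Aldh1l1 at 22.4 ± 1.74 TPM in CCI and 29.6 ± 2.20 TPM in SHAM. Slc7a11 was the lowest of the 10 in SHAM, while in CCI its libraries overlapped with those of Aldh1l1, which was the lowest there.

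The astrocyte filament gene Gfap, a common marker of reactive astrocytes, had 5110, 3971 and 3493 CPM after CCI and 2100 and 1982 CPM after SHAM (log2 fold change 1.04, SE 0.17, adjusted p = 0.0138). Set against Gfap within each library, 9 of the 10 genes had a lower ratio in every CCI library than in either SHAM library. All these ratios share Gfap, which itself rose, so a gene with an unchanged level also has a lower ratio. The share of all tested genes with such a ratio was not computed. For Aqp4 over Gfap the ratio was 0.378, 0.468 and 0.563 in CCI and 0.767 and 0.769 in SHAM, a log2 difference of -0.73. For Slc7a10 over Gfap it was 0.0172, 0.0185 and 0.0215 in CCI and 0.0701 and 0.0606 in SHAM, a log2 difference of -1.78, the widest of the 10. Of the 9 ratios, 8 had a two-sided exact permutation p of 0.1, the smallest possible, and an adjusted p of 0.13.

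The ninth was Gja1 over Gfap, with 0.0592, 0.0657 and 0.109 in CCI and 0.111 and 0.147 in SHAM (log2 difference -0.76, exact permutation p = 0.2). Slc7a11 was the exception. Slc7a11 over Gfap was 0.0338, 0.0689 and 0.0650 in CCI and 0.0487 and 0.0571 in SHAM, with CCI libraries on both sides of SHAM and a log2 difference of 0.01 (exact permutation p = 1).

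**Figure D3:**
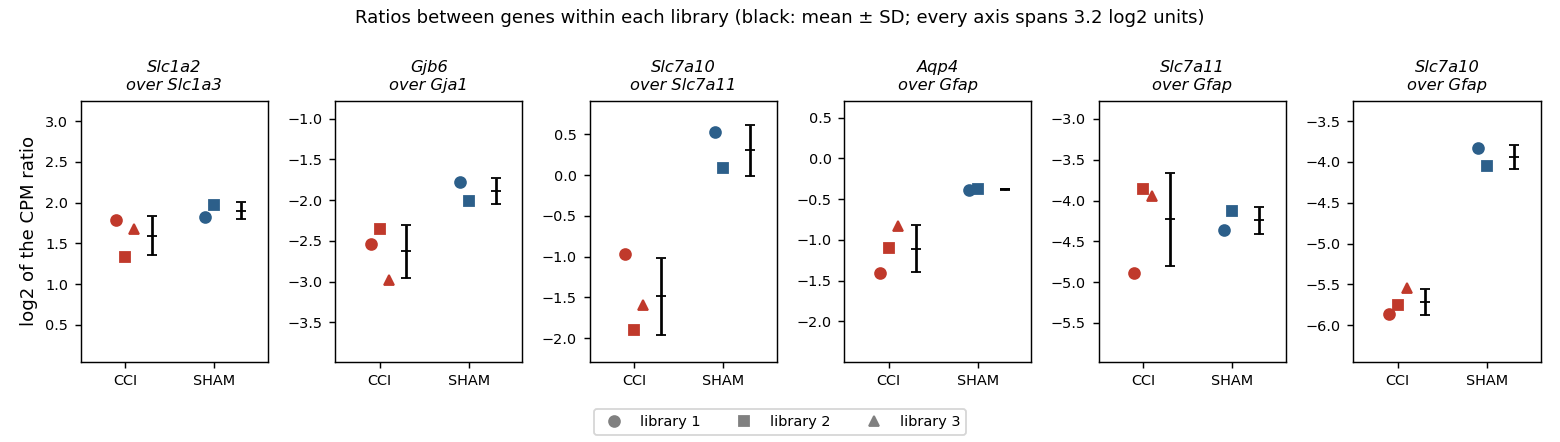
CPM ratios between genes within each library on the log2 scale, for 3 CCI libraries (red, left) and 2 SHAM libraries (blue, right), with black bars for the mean ± SD; each panel has its own axis of the same span. Slc7a10 over Slc7a11 averages -1.49 in CCI and 0.30 in SHAM, and Slc7a11 over Gfap averages -4.23 in CCI and -4.24 in SHAM.

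Other genes of the same pathways were read from 9 related lists with 166 distinct tested genes. Of these, 9 (5.42%) were called higher and none lower, beside 2.59% of all tested genes called higher, and 7 of the 9 were genes of reactive astrocytes. An unadjusted p below 0.05 was found for 44 (26.5%), beside 16.0% of all tested genes. The likelihood ratio test called 14 higher, and DESeq2 13 higher and 1 lower. None of 20 genes of the glutamate and GABA cycle was called (5 with an unadjusted p below 0.05, none by the likelihood ratio test, DESeq2 or limma-voom; median log2 fold change -0.08). Those with the smallest p were Slc38a3, an astrocyte glutamine transporter (67.7 CPM after CCI and 95.2 CPM after SHAM, log2 fold change -0.49, adjusted p = 0.0840), and Slc38a5, another glutamine transporter (8.37 CPM after CCI and 5.05 CPM after SHAM, 0.73, adjusted p = 0.115). Without CCI 1, 1 gene of this list was called higher.

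None of 15 genes of D-serine and glycine handling, the substrates of Slc7a10, was called by edgeR's quasi-likelihood test on all 5 libraries with TMM scaling and the filter (4 with an unadjusted p below 0.05; the likelihood ratio test called 1 higher, and DESeq2 1 higher and 1 lower). Shmt1, which interconverts serine and glycine, had 5.09, 5.16 and 3.92 CPM after CCI and 2.41 and 1.55 CPM after SHAM (log2 fold change 1.25, SE 0.29, adjusted p = 0.0596). Slc6a9, the glial glycine transporter, had 356, 311 and 308 CPM after CCI and 444 and 434 CPM after SHAM (-0.43, SE 0.11, adjusted p = 0.0725). In both genes the groups did not overlap. By the same test, 1 gene of this list was called higher with scaling to total counts only, with no low count filter and with CCI 2 and CCI 3 left out, and 1 was called lower without CCI 1.

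None of 23 genes of cystine transport and glutathione was called (6 with an unadjusted p below 0.05; 1 called higher by DESeq2 and 1 by the likelihood ratio test). Nfe2l2, a transcription factor of the antioxidant response, had 46.6, 51.2 and 45.9 CPM after CCI and 36.8 and 35.3 CPM after SHAM (log2 fold change 0.41, SE 0.11, adjusted p = 0.0910). Slc7a7, another light chain that pairs with Slc3a2, had 6.58 CPM after CCI and 3.48 CPM after SHAM on average (0.92, SE 0.25, adjusted p = 0.103). The list's median was 0.07, and 1 gene was called higher without CCI 1, without CCI 2 or with both CCI 2 and CCI 3 left out.

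None of 11 tested genes of other connexins, pannexins and their scaffold was called (3 with an unadjusted p below 0.05, none by the likelihood ratio test, DESeq2 or limma-voom). Gjb1, a connexin gene of oligodendrocytes, averaged 78.6 CPM after CCI and 106 CPM after SHAM (log2 fold change -0.44, adjusted p = 0.137). Beside it, the 9 oligodendrocyte markers summed to 15922 to 18393 CPM after CCI and to 20571 and 22148 CPM after SHAM, and their part was not tested. Gjb2, named after its values were seen because it is a further connexin of astrocytes and of the meninges, had 4.12, 12.7 and 15.2 CPM after CCI and 4.86 and 4.95 CPM after SHAM; it was high in the libraries with high fibroblast markers and did not pass (1.12, SE 0.56, adjusted p = 0.409). Without CCI 1, 1 gene of this list was called higher.

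None of 18 genes of the endfoot complex with its water and potassium channels was called (1 with an unadjusted p below 0.05, none by the likelihood ratio test, DESeq2 or limma-voom). The chloride channel gene Clcn2 averaged 41.7 CPM after CCI and 48.6 CPM after SHAM (log2 fold change -0.22, adjusted p = 0.341). None of 23 genes of acid-base and lactate transport was called (7 with an unadjusted p below 0.05; the likelihood ratio test called 1 higher and DESeq2 none). Slc16a3, a lactate exporter, averaged 3.23 CPM after CCI and 1.50 CPM after SHAM (1.10, adjusted p = 0.0962), and Car14, a carbonic anhydrase, averaged 39.0 CPM after CCI and 56.1 CPM after SHAM (-0.52, adjusted p = 0.101). Without CCI 1, 1 endfoot gene was called higher, and 1 acid-base gene was called higher and 1 lower.

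Among 21 folate genes, the pathway of Aldh1l1, 1 was called higher (4.76%, beside 2.59% of all tested genes). An unadjusted p below 0.05 was found for 3 (14.3%, beside 16.0% of all tested genes). Folr2, a folate receptor known from macrophages, had 32, 79 and 34 counts in CCI and 12 and 6 counts in SHAM (2.14 ± 0.878 CPM after CCI, SD, n = 3, and 0.423 ± 0.174 CPM after SHAM, SD, n = 2; log2 fold change 2.32, SE 0.50, adjusted p = 0.0426). Its call was lost without CCI 3, SHAM 1 or SHAM 2, without both CCI 2 and CCI 3, with limma-voom and with the Schwann cell covariate.

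Among 24 further genes of astrocyte identity, 1 was called higher (4.17%, beside 2.59% of all tested genes) and 0 lower, with a list median of -0.07. An unadjusted p below 0.05 was found for 6 (25%, beside 16.0% of all tested genes). In 8 genes every CCI library was below every SHAM library, and in 2 above, beside 18.1% and 18.6% of all tested genes. The called gene was Fabp7, a fatty acid binding protein of radial glia and astrocytes. It had 155, 165 and 169 CPM after CCI and 83.3 and 103 CPM after SHAM (log2 fold change 0.80, SE 0.12, adjusted p = 0.00830). The groups did not overlap, and the call was lost without SHAM 1 and with the Schwann cell covariate.

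Genes of reactive astrocytes had larger changes. Of 12 genes 7 rose (58.3%, beside 2.59% of all tested genes), with a list median of 1.61 on the log2 scale. The median was -0.07 for the 10 genes described here, which changed in both directions. Lcn2, a secreted iron-siderophore binding protein, had 6.62, 7.23 and 7.80 CPM after CCI and 1.0 and 0.750 CPM after SHAM (log2 fold change 3.03, SE 0.26). The intermediate filament gene Vim had 175, 249 and 226 CPM after CCI and 49.9 and 57.4 CPM after SHAM (2.01, SE 0.17). Timp1, an inhibitor of metalloproteinases (2.44, SE 0.25), and Cd44, a receptor for hyaluronan (1.08, SE 0.12), were also among the 7. The list holds genes that other cell types express too, and earlier results of these data were known when it was drawn up; 2 were called without SHAM 1 and 3 without SHAM 2.

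**Figure D4:**
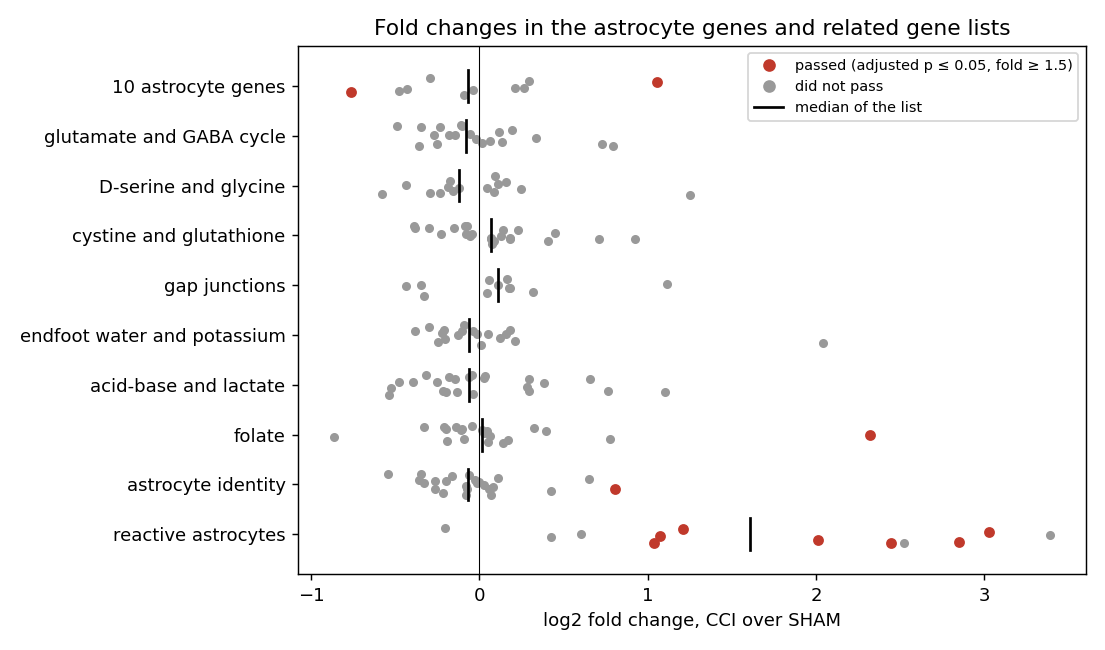
Fold change on the log2 scale, CCI over SHAM, of each tested gene of the 10 astrocyte genes and of 9 related lists; red points passed both thresholds (adjusted p of at most 0.05, fold of 1.5 or more), grey points did not, and black lines give each list's median. The median is -0.07 for the 10 genes and 1.61 for genes of reactive astrocytes, and that of the other 8 lists lies between -0.12 and 0.11.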

How the data were processed

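RNA from dorsal horn was sequenced in 3 CCI and 2 SHAM libraries, grouped by the treatment label; replicate numbers were given in accession order and do not pair libraries. The authors deposited estimated counts, 1 row per gene symbol; per the submitters' processing notes kallisto 0.44.0 and rn6 were used. The authors also deposited a signal table named TPM, whose column totals vary; per the labels' design text the authors applied trimmed mean of M-values (TMM) scaling to it. The annotation used is not given in the sources used here.

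Estimated counts were rounded. Genes passing filterByExpr (minimum count 10) entered a robust quasi-likelihood fit with TMM scaling in edgeR 4.0.16 (R 4.3.3; two-sided test, 3 residual degrees of freedom). P-values were adjusted by Benjamini-Hochberg over the 13478 genes. Standard errors (SE) were taken from the fold change and its F statistic. Counts were called fractional where any library lay more than 0.01 from a whole number. This held for 5 of the 10 genes (Slc1a2, Slc7a10, Slc7a11, Gja1 and Aqp4), beside 18.2% of all tested genes. Ratios were tested by the exact permutation test over the 5 libraries.

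The members and lists were chosen with earlier results of these data known. The text names all 10 members, up to 4 called genes of each list by p, or the 2 with the smallest p, and Gfap and Vim; 2 genes that this rule names are not reported here. All 10 members matched a RefSeq promoter (GRCr8); those shown have 1 entry each. Alternatives tried included DESeq2 1.42.0, the likelihood ratio test, limma-voom (limma 3.58.1), other scalings and filters, leaving out libraries, and a Schwann cell covariate. Limma was also run on the log2 of the deposited TPM plus 0.5 or 0.1. The covariate lowers the residual degrees of freedom, so a call lost with it is not by itself a result about that gene. Scripts were tested on simulated data: for CCI against SHAM, with 13402 genes run, 38% of genes simulated with a 1.5-fold change were called, 88% at a 2-fold and 100% at a 4-fold change, along with 3 unchanged genes. Figures were drawn with matplotlib 3.10.9.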

Additional observations from a re-analysis of the deposited data

How the results depend on the processing

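The 2 calls among the 10 genes, Slc7a11 higher and Slc7a10 lower, were both made by the likelihood ratio test, DESeq2, limma-voom, each scaling and filter, and the TPM table with either pseudocount. Leaving out single libraries gave 0 to 2 calls, with 1 without CCI 3 and 0 without SHAM 1 or SHAM 2, fits in which the lone SHAM library is assumed to vary like the CCI libraries. There was 1 call with CCI 2 and CCI 3 left out and 0 with the Schwann cell covariate. No scaling turned the direction of any of the 10 genes. Slc1a2 turned to 0.029 with CCI 2 and CCI 3 left out, Slc4a4 ranged from -0.14 to 0.045 over single libraries left out, turning without CCI 2, and Slc7a11 over Gfap ranged from -0.17 to 0.34, turning without CCI 2, CCI 3 or SHAM 1; the cause was not tested. Below a fold of 1.5, Aldh1l1 had an adjusted p of 0.0161 with DESeq2 and 0.0270 in the likelihood ratio test, and Aqp4 had 0.0239 with DESeq2. Over all genes, 384 were called (349 higher and 35 lower), against 614 by DESeq2, 698 by the likelihood ratio test, 180 with the covariate and 61 (without SHAM 1) to 763 (without CCI 1) over single libraries left out. In the related lists 9 were called, against 14 by DESeq2, 14 by the likelihood ratio test and 2 (without SHAM 1) to 17 (without CCI 1) over single libraries left out. No paired analysis was possible because the labels give the groups no shared replicate numbers. At 3 against 2 libraries a 1.5-fold change was often missed in simulated counts. The rule also asks for an estimated fold of 1.5 or more, which a gene at that fold can miss with any number of libraries. The genes that did not pass are not shown to be equal.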
